A study of Mus musculus with 12 samples.

Results

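The granzymes, perforin and the granzyme inhibitor Serpinb9 were followed through 5 probe sets of the Affymetrix mouse array, out of 45101 in the deposited table. The probe sets were given by identifier: 1419060_AT for Gzmb, 1417898_A_AT for Gzma, 1422280_AT for Gzmk, 1451862_A_AT for Prf1 and 1422601_AT for Serpinb9. The list gives identifiers and no measured value, but it was chosen with earlier results of these data known. All 5 were found. The deposited table names no genes, so these names rest on that list and were not checked against an annotation of the array.

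Cytotoxic lymphocytes store granzymes, which are serine proteases, together with perforin in granules. On contact with a target cell the granules are released, perforin forms pores, and the granzymes enter the target and cleave proteins that lead to its death. Serpinb9 is an intracellular inhibitor of granzyme B that protects the cells that make it. Granzyme B and perforin are best known from CD8 T cells and natural killer cells, but activated CD4 T cells and regulatory T (Treg) cells can make them too, and IL-2 acting through its receptor is a known inducer of both.

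The study measured CD4+ CD25+ T cells from mouse spleen in 4 groups of 3 arrays. Transgenic Treg cells and C57BL/6 Treg cells were sorted fresh from spleen. Transgenic effector cells and C57BL/6 effector cells were sorted after whole spleen cells had been cultured for 48 hours with anti-CD3, an antibody to the CD3 complex that stimulates T cells through their antigen receptor. The transgenic mice lacked the beta chain of the IL-2 receptor (IL-2Rbeta-deficient) and carried the C57BL/6-2Rbeta-WT/thymus transgene, a wild-type beta chain for the thymus, so their peripheral T cells are described as IL-2 receptor defective. The C57BL/6 mice are described as normal. No group carried the deficiency without the transgene or the transgene without the deficiency, so the 2 cannot be told apart here. Each Treg array held a pool of 3 to 15 mice, aged 7 to 33 weeks, and each effector array held 1 mouse, aged 9 to 15 weeks. The oldest pool, at 33 weeks, was transgenic Treg array 1.

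The values are log2 levels from GCRMA, a method that corrects Affymetrix probe intensities for background, normalizes the arrays and gives each probe set 1 value. On this scale 1 unit is a doubling of the intensity, and values near 2 to 3 are those of probe sets with little or no signal. Of the 45037 probe sets other than controls, 18271 were tested, those with log2 levels of 5 or higher on 3 or more arrays. Gzmb, Prf1 and Serpinb9 reached it on 12, 6 and 12 arrays. Gzma reached it on 3 arrays, all of them C57BL/6 effector arrays, so it entered the test through the group in which it is high. Gzmk reached it on no array and was not tested.

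The arrays of one population correlated with each other at 0.92 or more across the tested probe sets, and with those of the other population at 0.78 or less. For transgenic effector array 3 the labels conflict: the purification entry speaks of fresh spleen, the title of effector cells. This array correlated at 0.95 or more with every other effector array and at 0.78 or less with the Treg arrays. The spiked-in control transcripts read 12.65 and 11.63 on C57BL/6 Treg arrays 1 and 2, against 9.98 to 10.79 on the other arrays. The lowest value of an array was 0.94 to 0.96 on Treg arrays and 0.30 to 0.33 on effector arrays, so levels set across the populations may carry a difference in scale. Other probe sets are not paired with genes in the files, so the IL-2 receptor genes, the other granule genes, and the defining markers of Treg cells, CD8 T cells and natural killer cells were not looked up. The sorted cells were 99.0% to 99.9% CD4+ CD25+ where the labels give a figure.

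The promoter windows of Gzmb, Gzma and Prf1 are shown because these genes encode the secreted killing proteins, of which Gzmb and Gzma fell together in effector cells of transgenic mice. Each window holds the 250 bases before 1 RefSeq start on GRCm38.p6, written 5′ to 3′ on the strand of the gene. Prf1 and Serpinb9 have several annotated transcripts, and their windows use only 1 of the starts, so positions and missing motifs hold for that start alone. Capitals mark matches to the RUNX motif TGTGGT or the AP-1 motif TGANTCA, read on both strands.
Gzmb, chr14:56262335-56262584, minus strand: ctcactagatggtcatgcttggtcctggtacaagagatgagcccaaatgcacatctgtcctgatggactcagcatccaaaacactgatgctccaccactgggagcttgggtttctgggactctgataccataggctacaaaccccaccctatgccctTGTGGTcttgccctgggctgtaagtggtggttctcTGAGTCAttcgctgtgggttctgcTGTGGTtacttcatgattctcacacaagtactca
Gzma, chr13:113100982-113101231, minus strand: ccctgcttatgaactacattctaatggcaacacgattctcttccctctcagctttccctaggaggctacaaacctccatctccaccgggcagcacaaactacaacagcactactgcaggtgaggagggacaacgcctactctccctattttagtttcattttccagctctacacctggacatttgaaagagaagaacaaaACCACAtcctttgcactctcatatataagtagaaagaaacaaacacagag
Prf1, chr10:61297586-61297835, plus strand: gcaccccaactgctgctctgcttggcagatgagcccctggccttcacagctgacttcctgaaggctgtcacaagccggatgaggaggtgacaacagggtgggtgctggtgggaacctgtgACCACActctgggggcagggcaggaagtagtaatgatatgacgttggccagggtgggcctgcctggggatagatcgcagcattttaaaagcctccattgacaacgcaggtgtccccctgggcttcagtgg

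The RUNX motif, named for a family of T cell transcription factors, was found at 2 places in the Gzmb window, 88 to 93 and 29 to 34 bases before the start. It was found at 1 place in the Gzma window, 45 to 50 bases before the start, and at 1 place in the Prf1 window, 125 to 130 bases before it. Of 32851 such windows in the mouse table, 14% held this motif. The AP-1 motif, bound by factors that T cell activation induces, lay 52 to 58 bases before the Gzmb start, and 6.75% of all windows held it. The STAT motif TTCNNNGAA, bound by the factors that the IL-2 receptor activates, was in none of the 5 windows and in 7.02% of all windows. The T-box motif AGGTGTGA was likewise in none of the 5 and in 1.12% of all. No matches overlapped, and the windows of Gzmk and Serpinb9 held none of the 4 motifs. These are matches of letters in short windows and say nothing of binding there or farther away.

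**Figure D1:**
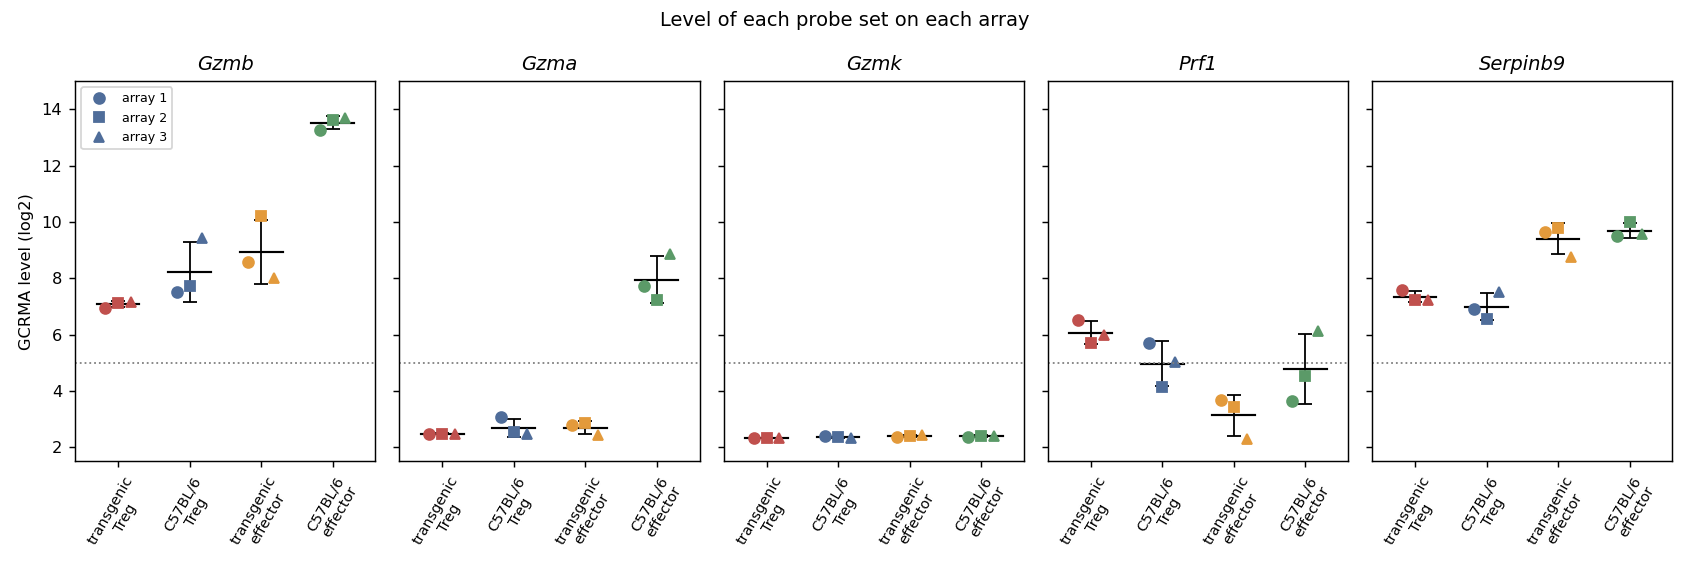
Log2 GCRMA level (vertical axis) of the 5 probe sets on each of the 12 arrays, by group. Points are arrays, long bars are means, error bars are SD (n = 3), and the dotted line is the log2 value of 5 used to choose probe sets for testing. Gzmb and Gzma are highest on the 3 C57BL/6 effector arrays, and Gzmk lies between 2.33 and 2.42 on all arrays.

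Granzyme B and granzyme A were both far lower in effector cells of transgenic mice than in those of C57BL/6 mice. Perforin and the inhibitor Serpinb9 did not pass the test there, and none of the 4 tested genes passed it in Treg cells, where the lowest unadjusted limma p was 0.0633, for Gzmb. In the effector comparison 1.08% of all tested probe sets were called lower and 1.92% higher at a limma adjusted p under 0.05. In the Treg comparison 0.805% were called lower and 0.389% higher.

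Gzmb, the granzyme that cleaves after aspartate and activates caspases, read 8.59, 10.20 and 8.01 on the transgenic effector arrays, against 13.28, 13.63 and 13.67 on the C57BL/6 effector arrays. Every transgenic array lay more than 3 log2 units below every C57BL/6 array, a separation in the same direction that 10.1% of all tested probe sets showed at any size, and transgenic array 2 stood above the other two. The means were 8.94 ± 1.13 in transgenic and 13.53 ± 0.22 in C57BL/6 effector cells (SD, n = 3). Gzmb fell by 4.59 on the log2 scale, a 24.1-fold difference (95% interval of the log2 difference -5.80 to -3.38, limma adjusted p = 0.00109). Among the 18271 tested probe sets this was the 11th largest decrease. On C57BL/6 effector arrays 2 and 3 Gzmb lay just above the 99th percentile of the array, which was 13.50 and 13.52, while the highest probe sets read 16.44 and 16.49. Whether bright probe sets are compressed at this level was not tested, so the fold is that of the deposited scale. In sorted bulk samples, fewer cells with the transcript and less of it per cell cannot be told apart. Without transgenic effector array 2 the log2 difference was -5.22 (limma adjusted p = 0.000366). Without array 3, the array with the conflicting label, it was -4.13 (limma adjusted p = 0.00345).

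Gzma, a granzyme that cleaves after basic residues and acts without caspases, read 2.79, 2.88 and 2.44 on the transgenic effector arrays. On the C57BL/6 effector arrays it read 7.74, 7.24 and 8.87. Its signal was therefore within the range of dim probe sets on every transgenic array, and clearly above it on every C57BL/6 array. The log2 difference of the deposited values was -5.25. Because the transgenic level is set by the background correction, the size is better given as a bound. With all values under 5 raised to 5, the Gzma mean was at least 7.73-fold lower on the transgenic effector arrays (limma adjusted p = 0.000417). This bound holds for the observed means and carries no interval. Raising made all values outside C57BL/6 effector cells equal, so those groups have no spread and this p is not a fair test. Gzma was tested only because these C57BL/6 arrays are high, so its call is a description of the separation and no independent support for it. Leaving out each array in turn gave log2 differences of -5.60 to -4.78.

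Gzmk, another granzyme with a preference for basic residues, gave no usable signal. It read 2.36, 2.39 and 2.42 on transgenic and 2.38, 2.42 and 2.41 on C57BL/6 effector arrays. On Treg arrays it read 2.35, 2.34 and 2.35 in transgenic and 2.39, 2.35 and 2.33 in C57BL/6 mice. Its range over the 12 arrays was 0.093, smaller than that of 96.9% of the 25661 probe sets that stayed below 5 on all arrays. A low reading does not show that the transcript was absent, only that this probe set did not detect it. Gzmk is the neighbour of Gzma on chromosome 13, with 1 gene annotated between them that does not code for protein. Gzma thus gave a signal on the C57BL/6 effector arrays, while the probe set of the next granzyme along the chromosome gave none on any array.

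Prf1, the pore-forming protein, read 3.69, 3.42 and 2.30 on the transgenic effector arrays, against 3.66, 4.55 and 6.14 on the C57BL/6 effector arrays. The groups overlapped, since transgenic array 1 lay just above C57BL/6 array 1, and of these 6 arrays only C57BL/6 array 3 exceeded 5. The log2 difference was -1.65 (95% interval -2.98 to -0.32), with an unadjusted limma p of 0.0196 and a limma adjusted p of 0.211. Without C57BL/6 effector array 3 it was -0.97 (limma adjusted p = 0.43), and without transgenic array 3 it was -1.23 (limma adjusted p = 0.45). Without C57BL/6 effector array 1 it was -2.21 (limma adjusted p = 0.135). With values under 5 raised to 5 it was -0.38. A fall of Prf1 in transgenic effector cells was not established at this signal.

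Array 3 had the highest Gzma, Gzmb and Prf1 values of the 3 C57BL/6 effector arrays. Serpinb9 did not share this order and was highest on array 2. The transferrin receptor, an iron-uptake protein of dividing cells that is measured by a control probe set, read 10.20, 9.19 and 10.43 on these arrays, with array 3 highest again. On transgenic effector array 3, the array with the conflicting label, Gzma, Gzmb, Prf1 and Serpinb9 were each the lowest of the 6 effector arrays. There the transferrin receptor read 8.02, against 9.19 to 10.43 on the other 5 effector arrays. The 3′ minus 5′ probe set values, which rise when RNA is degraded, were 0.82 for Actb and 0.21 for Gapdh on it. Both were the highest of the effector arrays, but C57BL/6 effector array 2 was close for Actb, at 0.80, and not for Gapdh, at 0.06. C57BL/6 Treg array 1 was higher on both, at 0.88 and 0.27. Transgenic effector array 3 also had the lowest array weight, 0.229. The part of these features in the granule gene values was not tested.

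Serpinb9 read 9.64, 9.79 and 8.77 on the transgenic effector arrays, against 9.51, 10.01 and 9.57 on the C57BL/6 effector arrays. The groups overlapped between 9.51 and 9.79, with transgenic array 3 below all C57BL/6 arrays and C57BL/6 array 2 above all transgenic arrays. The log2 difference was -0.30 (95% interval -0.96 to 0.36, limma adjusted p = 0.754), and 0.02 without transgenic array 3. The interval leaves room for a change of up to 1.94-fold downward, so equality is not shown. It does not reach the size of the Gzmb difference.

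**Figure D2:**
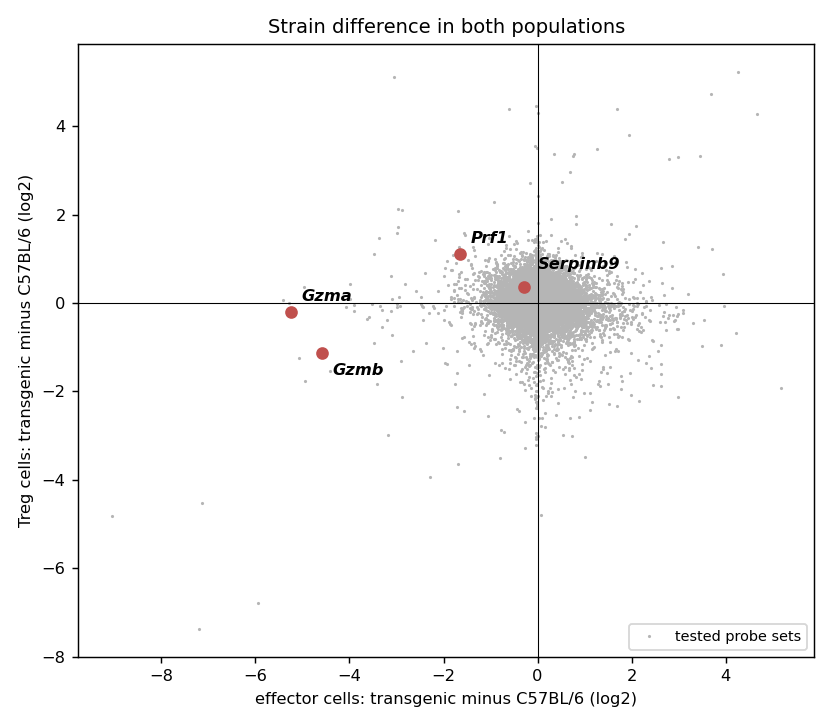
Strain difference (transgenic minus C57BL/6, log2) in effector cells on the horizontal axis and in Treg cells on the vertical axis. Grey points are the 18271 tested probe sets, and red points are the 4 tested genes. Gzma and Gzmb lie far to the left, at -5.25 and -4.59, with Treg differences of -0.20 and -1.14.

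In Treg cells the same genes gave smaller differences. Gzmb read 6.96, 7.13 and 7.17 on the transgenic Treg arrays, against 7.53, 7.71 and 9.43 on the C57BL/6 Treg arrays. All 3 transgenic arrays lay below all 3 C57BL/6 arrays, as they did in 7.18% of all tested probe sets, and C57BL/6 array 3 stood well above the other two. The means were 7.09 ± 0.11 and 8.22 ± 1.05 (SD, n = 3, transgenic and C57BL/6). The log2 difference was -1.14 (95% interval -2.35 to 0.07, limma adjusted p = 0.584, unadjusted p = 0.0633), so the decrease did not pass the test. Without C57BL/6 Treg array 3 the log2 difference was -0.53 (limma adjusted p = 0.764). Within the 4 Treg arrays that carry consecutive provider sample codes, 2 per strain, the Gzmb means were 7.05 in transgenic and 7.62 in C57BL/6 cells. C57BL/6 Treg array 3 also had the highest transferrin receptor value of the Treg arrays, 7.66 against 4.39 to 6.96 on the other 5. It had the lowest array weight of the Treg arrays, 0.236. Its pool was the largest, at 15 mice, and its labels give no sorted purity. The part of these features in the Gzmb value was not tested.

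Gzma stayed near the floor in Treg cells of both strains, at 2.49, 2.48 and 2.49 on transgenic and 3.07, 2.54 and 2.46 on C57BL/6 arrays. Its log2 difference of -0.20 (limma adjusted p = 0.95) is not informative, since no Treg array gave a signal above the dim range.

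Prf1 read 6.51, 5.71 and 5.98 on the transgenic Treg arrays, against 5.72, 4.13 and 5.04 on the C57BL/6 Treg arrays. The transgenic values were higher on average, but the lowest of them was just under the highest C57BL/6 value. Between same-numbered arrays the transgenic value was higher by 0.79, 1.58 and 0.94. In the same pairs Gzmb differed by -0.57, -0.58 and -2.26, and Serpinb9 by 0.66, 0.67 and -0.27. How often other probe sets kept one direction in every pair was not counted. The Prf1 means were 6.07 ± 0.41 in transgenic and 4.96 ± 0.80 in C57BL/6 Treg cells (SD, n = 3). The log2 difference was 1.10 (95% interval -0.23 to 2.43, limma adjusted p = 0.678, unadjusted p = 0.0949), and the limma adjusted p was 0.608 with same-numbered arrays blocked together. This log2 difference was 0.69 without C57BL/6 Treg array 2 and 1.68 with array weights (limma adjusted p = 0.0794). Those weights rest mostly on C57BL/6 Treg array 2, at 5.017 against 0.45 and 0.236 on arrays 1 and 3. Its Prf1 value was the lowest of these arrays. Transgenic Treg array 1, the pool of the oldest mice, had the highest Prf1 value of all 12 arrays, and age was not tested.

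Serpinb9 read 7.57, 7.23 and 7.24 on the transgenic Treg arrays, against 6.91, 6.57 and 7.50 on the C57BL/6 Treg arrays. The groups overlapped through C57BL/6 array 3, and the log2 difference was 0.35 (95% interval -0.31 to 1.01, limma adjusted p = 0.856). It was 0.14 without C57BL/6 Treg array 2, 0.61 without C57BL/6 Treg array 3 and 0.67 with array weights (limma adjusted p = 0.07). Under these weights the C57BL/6 Treg mean rests mostly on array 2, which had the lowest Serpinb9 value of these arrays.

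Whether the strain difference itself depended on the population was tested as the Treg strain difference minus the effector strain difference. In this test 2.26% of all tested probe sets were called, and 0.744% of all tested probe sets were called with a positive value. For Gzma the value was 5.04 on the log2 scale, and 2.95 with values under 5 raised to 5. Gzma could show no fall in Treg cells, where it had no signal to lose, so this value restates the effector difference and says nothing of Treg cells. For Gzmb, which was measurable in all 4 groups, the value was 3.45 ± 0.78 (SE, 95% interval 1.74 to 5.17, limma adjusted p = 0.0461). This call sits at the threshold and was lost in 15 of the 23 alternatives. The adjusted p ranged from 0.00272 to 0.132 over the alternatives with a test, and was 0.114 without the filter on dim probe sets. It was 0.0515 when same-numbered arrays were blocked together in both populations, although effector arrays were not taken as paired. Leaving out any array but transgenic effector array 2 or C57BL/6 Treg array 3 also put it above 0.05. The size of the Gzmb value was steadier, between 2.88 and 4.09 over all alternatives.

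For Prf1 the same test gave 2.75 ± 0.86 (SE, 95% interval 0.87 to 4.63, limma adjusted p = 0.158, unadjusted p = 0.00808). Of the 4 tested genes, Prf1 alone had a mean that was higher in transgenic Treg cells and lower in transgenic effector cells by more than 1 log2 unit each, and none of these differences passed the test. With array weights, which give the outlying arrays less influence, the Prf1 value was 2.42 (limma adjusted p = 0.0466). The C57BL/6 Treg mean then rests mostly on array 2, weighted 5.017 against 0.45 and 0.236 on arrays 1 and 3. Array 2 had the lowest Prf1 value of these arrays. Under these weights 2529 of all tested probe sets were called in this test, against 413 in the main fit. For Serpinb9 the value was 0.65 ± 0.43 (SE, limma adjusted p = 0.57).

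**Figure D3:**
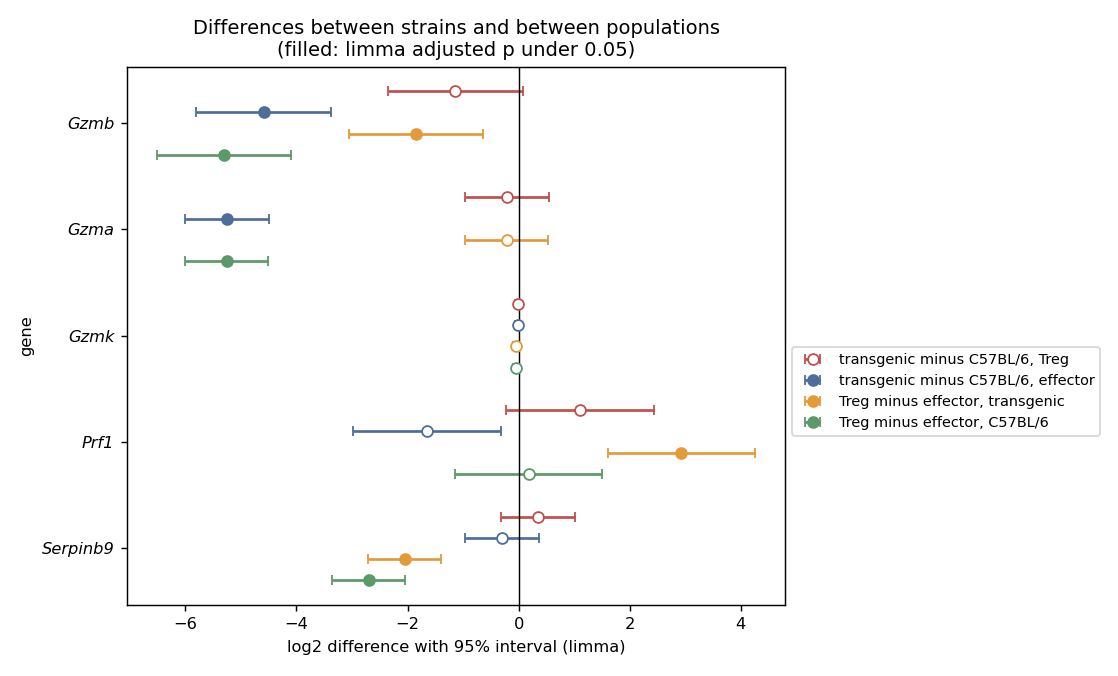
Log2 differences (horizontal axis) of the 5 genes with 95% intervals from limma, for the strain comparison in each population and the population comparison in each strain. Filled points passed a limma adjusted p under 0.05. Gzmb and Gzma have filled points far below 0 for the effector strain difference, at -4.59 and -5.25, and Prf1 has its only filled point at 2.93.

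Fresh Treg cells differed from cultured effector cells in most of the transcriptome, with 70% of the tested probe sets called in transgenic and 73.8% in C57BL/6 mice. A call in this comparison is therefore ordinary, and population cannot be told apart from culture, activation, pooling and sample code. The median log2 difference of all tested probe sets was -0.21 in transgenic and -0.26 in C57BL/6 mice. These medians were not subtracted from the differences of the granule genes that follow.

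In transgenic mice Gzmb averaged 7.09 ± 0.11 in Treg and 8.94 ± 1.13 in effector cells (SD, n = 3), a log2 difference of -1.85 (limma adjusted p = 0.0106). Without transgenic effector array 2 this difference was -1.22 (limma adjusted p = 0.042). In C57BL/6 mice it averaged 8.22 ± 1.05 in Treg and 13.53 ± 0.22 in effector cells, a log2 difference of -5.30 (limma adjusted p = 4.9e-06). The order of the Gzmb means was C57BL/6 effector, transgenic effector, C57BL/6 Treg and transgenic Treg cells. The middle pair overlapped, at 8.01 to 10.20 on transgenic effector and 7.53 to 9.43 on C57BL/6 Treg arrays, and was not tested.

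The Gzma mean was at least 7.73-fold lower in Treg than in effector cells of C57BL/6 mice, with values under 5 raised to 5 (limma adjusted p = 7.92e-06). Raising left the Treg values without spread, so this p too is not a fair test. Only the C57BL/6 effector arrays brought Gzma into the test, so this call too describes the separation and is no independent support for it. In transgenic mice all 6 arrays of both populations lay between 2.44 and 2.88, and the log2 difference of -0.22 (95% interval -0.97 to 0.54, limma adjusted p = 0.593) compares readings without signal. Gzma was thus detected in 1 of the 4 groups.

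Serpinb9 was lower in Treg than in effector cells of both strains. Its log2 difference was -2.05 in transgenic mice, a 4.15-fold difference (limma adjusted p = 8.66e-05), and -2.70 in C57BL/6 mice, a 6.51-fold difference (limma adjusted p = 8.51e-06). All Treg arrays, at 6.57 to 7.57, lay below all effector arrays, at 8.77 to 10.01, and Treg arrays lay wholly below effector arrays in 42% of all tested probe sets in transgenic and 43.7% in C57BL/6 mice. Within each population the strains were neighbours in this order and did not pass the test.

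Prf1 was higher in Treg than in effector cells of transgenic mice, where it passed the test, and gave no call in C57BL/6 mice. In transgenic mice it averaged 6.07 ± 0.41 in Treg and 3.14 ± 0.74 in effector cells (SD, n = 3), a log2 difference of 2.93 (95% interval 1.60 to 4.26, limma adjusted p = 0.0011). All 3 transgenic Treg arrays lay above all 3 transgenic effector arrays, as they did in 31.8% of all tested probe sets. The effector values were in the dim range, and with values under 5 raised to 5 the means differed at least 2.09-fold (limma adjusted p = 0.0118). Raising made the 3 transgenic effector values equal, so this p holds no spread from them. In C57BL/6 mice it averaged 4.96 ± 0.80 in Treg and 4.78 ± 1.26 in effector cells. That log2 difference of 0.18 (95% interval -1.15 to 1.51, limma adjusted p = 0.799) changed sign under quantile normalization of all arrays, to -0.31. The order of the Prf1 means was transgenic Treg, C57BL/6 Treg, C57BL/6 effector and transgenic effector cells, and no pair of neighbours in it passed the test, although the 95% interval of the effector strain difference, given above, excluded 0.

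Granzyme B was also set against its inhibitor on each array, a comparison chosen after the values had been seen. The Gzmb value minus the Serpinb9 value removes whatever scales both probe sets alike on an array. Its absolute size has no meaning between different probe sets, but its change between strains does. In effector cells it was -1.05, 0.42 and -0.75 on transgenic arrays, against 3.76, 3.62 and 4.11 on C57BL/6 arrays. In Treg cells it was -0.61, -0.10 and -0.07 on transgenic arrays, against 0.62, 1.14 and 1.93 on C57BL/6 arrays. The strains did not overlap in either population. Of the 18270 other tested probe sets set against Serpinb9 in the same way, Gzmb included, 1.23% lay wholly lower in transgenic effector cells and 10% in transgenic Treg cells. The difference of means was -4.29 in effector and -1.49 in Treg cells, each with an exact permutation p of 0.1 (two-sided, n = 3 per group, also 0.1 adjusted over the 2 comparisons), the smallest that 3 arrays against 3 can give. Neither difference can therefore pass a threshold of 0.05 by this test.

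**Figure D4:**
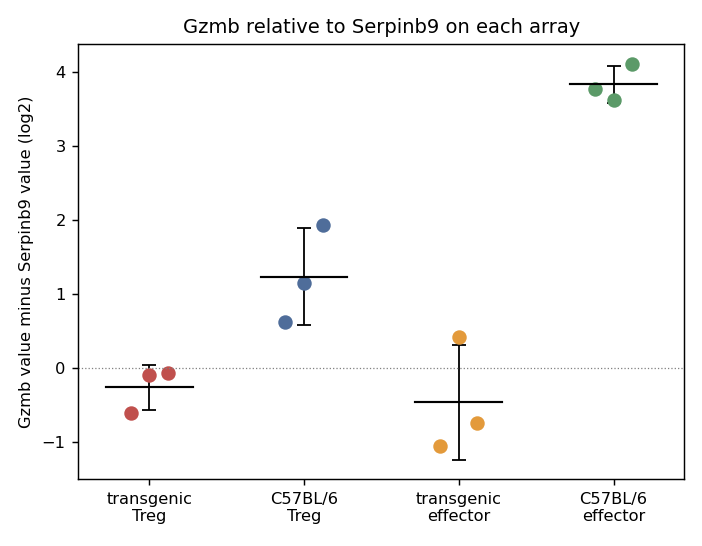
Gzmb value minus Serpinb9 value (log2, vertical axis) on each array, by group. Points are arrays, long bars are means and error bars are SD (n = 3). The transgenic arrays lie below the C57BL/6 arrays in both populations, with mean differences of -1.49 in Treg and -4.29 in effector cells.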

How the data were processed

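The authors made the deposited log2 values with GCRMA, per the submitters' processing notes, 1 value for each probe set on each array. The GCRMA version, and whether Treg and effector arrays went through it together, are not given in the sources used. The labels' protocols state 1 round of in vitro transcription. Groups and replicate numbers follow the sample titles; the series' design text describes the replicates as biological. The members, lists and tests were chosen with earlier results of these data known.

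The 64 control probe sets were left out, and probe sets reaching log2 5 on 3 arrays or more were tested. limma 3.58.1 in R 4.3.3 fitted the means of the 4 groups on the 12 arrays together (eBayes with a variance trend), and p-values were adjusted by Benjamini-Hochberg over the 18271 tested probe sets. Gzmk was fitted without the filter, as a value only. The model was also run on simulated data with independent noise on each array. Deviations of some of the real arrays were correlated, as given below, so that run does not vouch for the p-values here. The number of arrays limits the precision.

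The named genes are the 5 members. Other probe sets of these genes, the chosen pathway and marker lists and the search for genes of like pattern were not used, because the files pair no further probe set with a gene. Motifs were searched in RefSeq promoter windows (GRCm38.p6), which matched all 5 genes. Deviations from the group means of same-numbered transgenic and C57BL/6 arrays correlated across probe sets at 0.58, 0.10 and 0.51 in Treg cells. Each was above the minimum of 0.1, so Treg arrays were taken as paired on this evidence alone. It is weak for transgenic Treg array 2, at 0.102 with C57BL/6 array 2 and 0.114 with C57BL/6 array 3. The main fit held no pairing. For the strain comparisons the replicate block added it as an alternative, for Treg and effector arrays alike. In effector cells the same-numbered deviations correlated at 0.21, -0.34 and -0.34, and these arrays were not taken as paired. The replicate block joined them by number all the same, and a block of Treg arrays alone was not fitted. Alternatives were other normalizations, filters and variance models, array weights (the gene-by-gene method), the compared arrays alone, blocks for replicate number and sample code, mean intensities, and leaving out each array. Figures were drawn with matplotlib 3.10.9.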

Additional observations from a re-analysis of the deposited data

Results flagged for a closer look

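For Gzmb the strain difference differed between the populations in the test of the difference itself, by 3.45 on the log2 scale (limma adjusted p = 0.0461), with strain differences of -1.14 in Treg and -4.59 in effector cells. Over all tested probe sets 2.26% were called in this test and 0.744% with a positive value. The Gzmb call was lost in 15 of the 23 alternatives, among them the replicate block (limma adjusted p = 0.0515), which also joined effector arrays by number. For Gzma the same quantity was 5.04, but Gzma had no signal above the dim range on any Treg array of either strain and was tested only through the C57BL/6 effector arrays, so this value is no evidence of a difference between populations.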

How the results depend on the processing

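The 4 tested genes in 5 comparisons gave 463 values under the alternatives, and 439 of them were counted as unchanged. For alternatives with a test this means the same direction and the same side of the threshold. The mean intensities have no test, and their values were counted as unchanged within 1 pooled within-group SD of the main value. A further 2, both of Gzma among arrays without signal, were exactly 0 with values under 5 raised to 5 and have no direction. The other 22 concern the Gzmb difference between populations, Prf1 and Serpinb9. The Gzmb value of 3.45 lost its call under several settings, which left only Gzma called in that test. The Gzma value, as given above, says nothing of Treg cells. With array medians subtracted the Gzmb value was 3.51 (limma adjusted p = 0.0545, with 372 probe sets called over all tested). With quantile normalization of all arrays it was 3.18 (limma adjusted p = 0.0676, 399 called). It stayed at 3.45 without a filter (limma adjusted p = 0.114, 292 called) and without a variance trend (limma adjusted p = 0.0509, 396 called). It was also 3.45 with the replicate number as a block (limma adjusted p = 0.0515). With 1 array left out the Gzmb value ranged from 2.99 to 4.09. From 1 to 2 of the 4 genes were then called, Gzma always among them, and from 214 to 433 of all tested probe sets. The replicate block changed no other call of the 4 genes in the 5 comparisons. For Treg minus effector cells it was added after the data had been seen. With array weights, which rest mostly on array 2 among the C57BL/6 Treg arrays, the Prf1 difference between populations was called (2.42, limma adjusted p = 0.0466). In all, 3 genes were then called. Under these weights 2529 of all tested probe sets were called in that test, against 413 in the main fit. The Prf1 difference of Treg minus effector cells in C57BL/6 mice turned to -0.31 with quantile normalization of all arrays, to -0.38 without C57BL/6 effector array 1, to -0.20 without C57BL/6 Treg array 1 and to -0.13 with values under 5 raised to 5, and ranged up to 0.86 with 1 array left out. The Serpinb9 strain difference in effector cells turned to 0.044 with array weights and to 0.018 without transgenic effector array 3, and was -0.49 at the lowest with 1 array left out. The cause of these turns was not tested. Raising values under 5 was chosen after the data had been seen.

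With the filter at log2 7 Prf1 could not be tested, and the fit to the compared arrays alone is the same as the main one for the difference between populations. Over all tested probe sets the number called ranged from 74 with the 6 Treg arrays alone to 1232 with array weights in the Treg strain comparison, against 218. It ranged from 223 with the 6 effector arrays alone to 3033 with array weights in the effector strain comparison, against 547. Low signal limits Gzma outside C57BL/6 effector cells, Prf1 in effector cells, and Gzmk on every array.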
